A study of Saccharomyces cerevisiae with 18 samples.

Results

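The genes described here are 10 yeast genes of the pheromone response and mating, namely GPA1, STE2, STE3, STE4, STE6, STE18, FUS1, FUS3, FAR1 and AXL1. They were chosen by name, as the probe sets whose gene symbol in the platform annotation is one of these 10. Each was read by 1 probe set, a group of short probes for the same transcript, among 5763 probe sets tested and 5449 distinct gene names. RNA came from cultures of Saccharomyces cerevisiae strain BY4743, a diploid laboratory strain that lacks HIS3, LEU2 and URA3 function on both homologs and carries MET15 (MET17) and LYS2 on a single homolog. Cultures growing in log phase, in a minimal medium supplemented with uracil, received a dried extract of the horsetail Equisetum arvense at 2.5 mg/mL for 20 min, or no extract (control). The labels name the extracts by origin and number, and there were 2 arrays each with USA2, USA6, USA7, EUROPE11 and INDIA13, 4 arrays with CHINA8 and 4 control arrays. The titles of 2 of the CHINA8 and 2 of the control arrays carry a date of their own (batch 1), and all other arrays share another (batch 2). The methods call the cultures biological replicates. All values are log2 signals (RMA) of whole cultures, in which fewer cells with a transcript and less transcript per cell cannot be told apart.

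Haploid yeast cells of mating type a and α signal to each other with peptide pheromones. An a cell carries the receptor Ste2 for α-factor and an α cell carries the receptor Ste3 for a-factor, and both receptors act through the same G protein, a MAP kinase cascade and the transcription factor Ste12, which leads to cell cycle arrest and cell fusion. In a diploid of the a/α type the a1-α2 repressor turns off the haploid-specific genes, among them those for the G protein, and α2 turns off the a-specific genes, so such a cell neither makes nor senses pheromone.

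All 10 mating genes lay below the median level of all probe sets, 9.59 on the log2 scale, when averaged over the 18 arrays. Their means ran between 3.70 for FAR1 and 8.10 for STE4. The strain offers its own measure of no transcript, since LEU2 and URA3 are deleted in full. The highest value that either of them reached on any array was 3.98, and 3.42% of all probe sets had a mean below it. Probe sets differ in brightness, so the share of probe sets below a gene places it within the range of the array and does not order transcripts by abundance.

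Among the receptors, STE2 averaged 7.63, with 16.1% of probe sets below it, and STE3 averaged 5.05, with 5.85% below it. Among the G protein genes, GPA1 (α subunit) averaged 6.53 with 9.84% below it and STE4 (β subunit) averaged 8.10 with 21.1% below it. STE18 (γ subunit) averaged 4.02 and exceeded the deleted genes' highest value on 9 of 18 arrays. The other 9 arrays read STE18 at or below that value. FUS3, the MAP kinase that acts on mating, averaged 4.33. FAR1, whose product arrests the cell cycle and guides the cell towards its partner, averaged 3.70 and lay below the deleted genes' highest value on all 18 arrays. FUS1, which codes for a membrane protein of cell fusion and is strongly induced by pheromone in haploid cells, averaged 4.60, with 4.93% of probe sets below it. STE6, the exporter of a-factor, averaged 6.87, and AXL1, which codes for a protease that matures a-factor and also directs axial budding of haploid cells, averaged 7.16.

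Markers of mating type were read beside the label of the strain, as a description that does not settle its genotype. The methods write its genotype as MATα/MATα, whereas BY4743 is commonly described as MATa/MATα. Of the 4 listed α-specific genes, STE3 was at 5.05, MF(ALPHA)1 (α-factor) at 5.96 and MF(ALPHA)2 at 4.81. SAG1 (α-agglutinin) stood higher, at 8.23, with 22.7% of probe sets below it. Of the 7 listed a-specific genes, STE2 was highest at 7.63, with 16.1% of probe sets below it. The others were STE6 at 6.87, BAR1 at 6.01, the pheromone genes MFA1 at 5.85 and MFA2 at 5.51, AGA2 at 5.48 and ASG7 at 4.56. All 4 listed α-specific genes and all 7 listed a-specific genes lay below the median of all probe sets, as did 9 of 10 listed haploid-specific genes. The exception was RME1, which codes for a repressor of meiosis, at 9.64. Of other lists, 4 of 4 silencing genes, 9 of 12 shared signalling genes and 7 of 10 bud site genes lay below the median too. Among 9 genes for pheromone maturation 3 did. A place below the median thus does not by itself tell the cell type. The probe set annotated to HMRA1, the a1 gene, read between 8.95 and 10.55, and that annotated to HMLALPHA1, the α1 gene, read between 5.23 and 6.92. Each of these genes has the same sequence at a silent locus and at MAT, so the array does not tell the loci apart. The HMLALPHA1 probe set is of a kind that can bind several transcripts, as is that of HMRA2, and no probe set was matched here to the α2 gene.

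**Figure D1:**
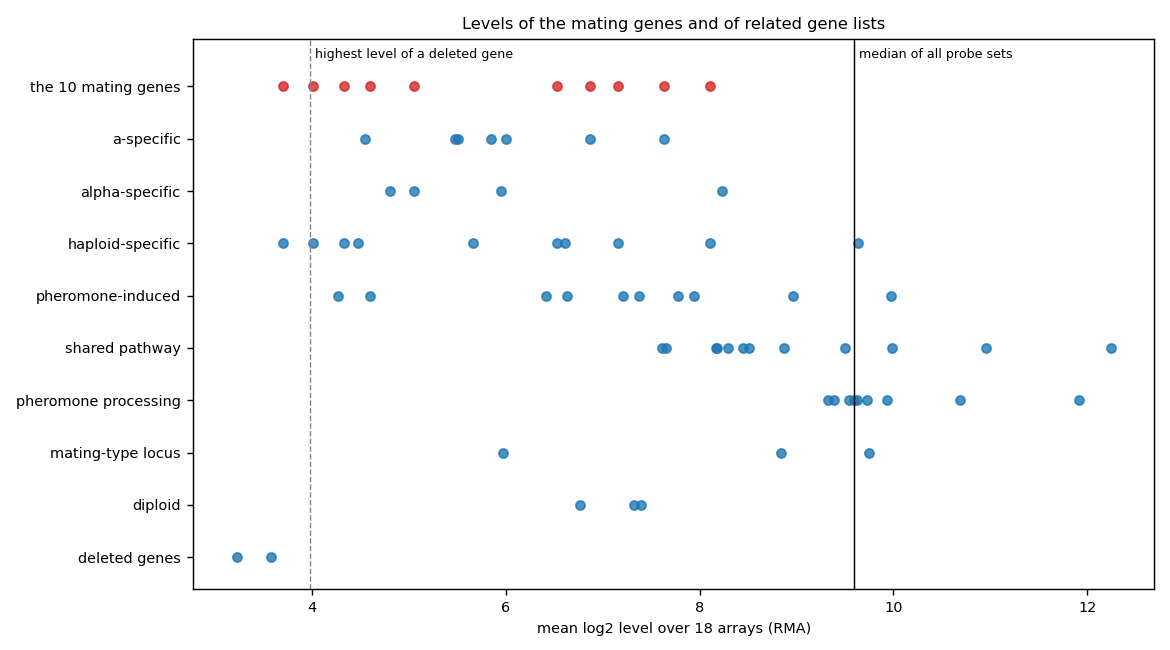
Mean log2 level over 18 arrays (x axis) of the 10 mating genes (top row) and of related gene lists (other rows), 1 point per gene, with the median of all probe sets (solid line, 9.59) and the highest value of the deleted genes LEU2 and URA3 (dashed line, 3.98). All 10 mating genes sit left of the median, and FAR1 sits left of the dashed line.

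Most comparisons of a mating gene with an extract did not pass, and those that did were of small changes. Of 60 comparisons, 10 genes with 6 extracts each, 8 passed limma's test with Benjamini-Hochberg adjustment over all 5763 probe sets at 0.05, and 6 of the 10 genes passed with at least 1 extract, against 65.2% of all probe sets. FUS1 rose with USA6 and CHINA8, FUS3 with CHINA8 and INDIA13, FAR1 with INDIA13, and STE4 and AXL1 with USA7, while STE6 fell with USA7. GPA1, STE2, STE3 and STE18 passed with no extract. The called changes were between 1.18-fold and 1.36-fold for the genes that rose, and STE6 fell to 0.624 of the control level.

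By extract, the counts stand beside the share of all probe sets that passed. With USA7, 3 of 10 mating genes passed (2 higher, 1 lower), against 39.3% of all probe sets (20.4% higher, 18.9% lower). With CHINA8, 2 of 10 passed, both higher, against 39.6% (19.7% higher, 19.9% lower). With INDIA13, 2 of 10 passed, both higher, against 28.5% (14.1% higher, 14.4% lower). With these 3 extracts, and with USA2 and EUROPE11 given next, the share of the mating genes was below that of all probe sets. With only 10 genes this does not set them apart. With USA6, 1 of 10 passed, higher, against 6.96% (4.08% higher, 2.88% lower). With USA2, 0 of 10 passed, against 18.9% (10.5% higher, 8.36% lower) (at an unadjusted p under 0.05 there was 1, FUS3). With EUROPE11, 0 of 10 passed, against 22.2% (12.3% higher, 9.89% lower), and at an unadjusted p under 0.05 there were 2, STE6 and FAR1. The shares given are after adjustment, and those at an unadjusted p were not computed. The median log2 change of the 10 genes was 0.13 with USA2, -0.00 with USA6, 0.15 with USA7, -0.02 with CHINA8, 0.10 with EUROPE11 and 0.21 with INDIA13. The median of all probe sets lay between -0.00 and 0.03. The contrasts share the same 4 control arrays.

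The groups did not overlap with control for 6 mating genes with USA7 (50.5% of all probe sets), 5 with INDIA13 (40.3%), 3 with USA2 (41.5%), 3 with EUROPE11 (42.1%), 3 with USA6 (28.6%) and 1 with CHINA8 (30.3%). With 2 arrays against 4 such a separation is common, as those shares show. CHINA8 and control have 4 arrays each.

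**Figure D2:**
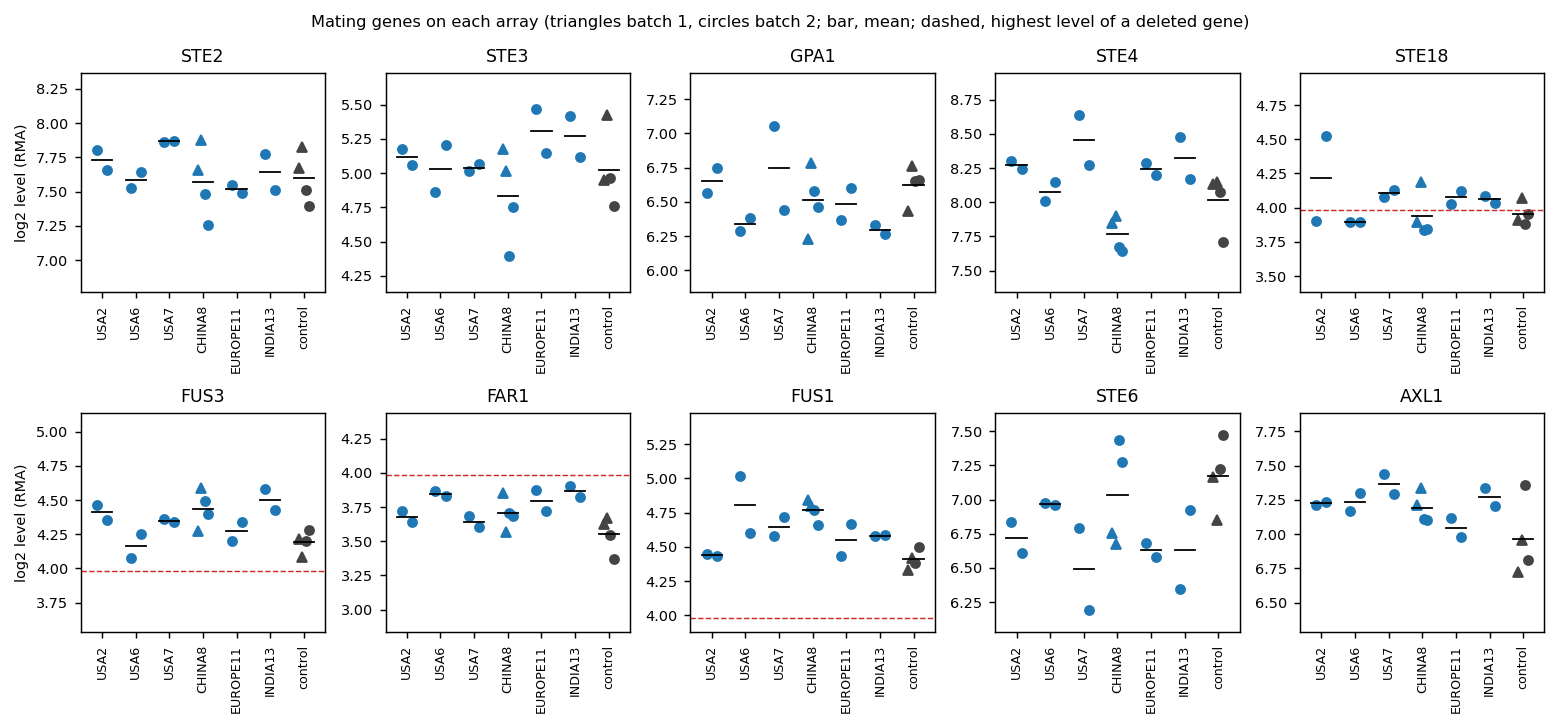
Log2 level (y axis) of each mating gene on each array, by condition (x axis), with extracts in blue and control in dark grey, triangles for batch 1, circles for batch 2, a bar at the mean and a dashed line at the highest value of a deleted gene. Every panel spans the same height, and FAR1 lies under the dashed line on all arrays.

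In the model without a batch term, the receptor genes did not pass with any extract. STE2 read 7.87 and 7.87 with USA7, against 7.67, 7.83, 7.51 and 7.39 in control. Both USA7 arrays lay above all control arrays, but the log2 change of 0.27 (SE 0.15) had an adjusted p of 0.167 in limma. With batch as a block it was 0.44 (adjusted p = 0.00406), within batch 2 alone 0.42 (0.00951), and without the CHINA8 and control arrays of batch 2 it was 0.12 (0.423). On the CHINA8 arrays STE3 read 5.18 and 5.01 in batch 1 and 4.39 and 4.75 in batch 2. Control read 4.95 and 5.42 in batch 1 and 4.97 and 4.76 in batch 2. The log2 change with CHINA8 was -0.19, with a 95% interval between -0.55 and 0.17.

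Of the G protein genes, STE4 passed with USA7 and no other passed in the model without a batch term. With batch as a block STE4 passed with 5 extracts, as given further on. STE4 read 8.64 and 8.27 with USA7, against 8.13, 8.15, 8.07 and 7.71 in control. Both USA7 arrays lay above every control array. The log2 change was 0.44 (SE 0.14, adjusted p = 0.0213, limma), and without the first USA7 array it was 0.26 with an adjusted p of 0.282. On the CHINA8 arrays STE4 read 7.85, 7.90, 7.67 and 7.65. These overlapped control only through control array 4, and the log2 change of -0.25 had an adjusted p of 0.0946. Without control array 4 it was -0.35 with an adjusted p of 0.0145.

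STE4 was also the mating gene for which the 6 extracts differed from each other by limma's F-test (adjusted p = 0.0152), a test that 1 of 10 mating genes and 29.4% of all probe sets passed. With batch as a block, or within batch 2 alone, 4 of 10 mating genes passed it. The share of all probe sets that passed it in those models was not computed. In order, the mean of STE4 was 8.46 with USA7, 8.32 with INDIA13, 8.27 with USA2, 8.24 with EUROPE11, 8.08 with USA6 and 7.77 with CHINA8. Control was at 8.01, between USA6 and CHINA8. Neighbours in this order lay within the SD of 0.17 between arrays of the same condition, except CHINA8 and control, and the highest and lowest condition were 0.69 apart.

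GPA1 read 6.33 and 6.26 with INDIA13 and 6.29 and 6.39 with USA6, against 6.43, 6.76, 6.65 and 6.66 in control. All 4 of these extract arrays lay below the control arrays, with log2 changes of -0.33 (adjusted p = 0.147) and -0.29 (adjusted p = 0.346) in limma. With USA7 its 2 arrays were far apart, at 7.05 and 6.44. STE18 differed by at most 0.26 from control with any extract and ran between 3.84 and 4.53, around the highest value of the deleted genes. That largest difference, with USA2, rested on arrays at 3.90 and 4.53, and without the first of them it was 0.57 (adjusted p = 0.0197, limma).

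FUS3 read 4.27, 4.59, 4.49 and 4.39 with CHINA8 and 4.58 and 4.43 with INDIA13, against 4.22, 4.08, 4.20 and 4.28 in control. The INDIA13 arrays lay above all control arrays, and the lowest CHINA8 array lay within the control range. These are dim values, as 4.37% of probe sets lay below the mean of FUS3 and the deleted genes reached 3.98. The log2 change was 0.24 (SE 0.08, adjusted p = 0.0249) with CHINA8 and 0.31 (SE 0.10, adjusted p = 0.0283) with INDIA13, in limma. The call with CHINA8 was lost without control array 2 (adjusted p = 0.0771) and without CHINA8 array 2 (0.0769) or 3 (0.0623). The call with INDIA13 was lost without control array 2 (0.0590) or the first INDIA13 array (0.239). Within batch 2 alone the change with CHINA8 was 0.20 (adjusted p = 0.130), within batch 1 alone it was 0.28 (0.238), and with INDIA13 within batch 2 it was 0.26 (0.0442).

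FAR1 read 3.90 and 3.83 with INDIA13, against 3.63, 3.67, 3.55 and 3.37 in control. The extract arrays lay above control, yet every value was below the highest value of a deleted gene. The log2 change was 0.31 (SE 0.09, adjusted p = 0.0252, limma). It missed the threshold without control array 4 (adjusted p = 0.0533) and without either INDIA13 array (0.175 and 0.0674). With USA6, where FAR1 read 3.87 and 3.83, the log2 change was 0.29 with an adjusted p of 0.0830. Of the deleted genes, LEU2 averaged 3.73 with INDIA13 and 3.52 in control, and URA3 averaged 3.21 and 3.24.

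FUS1, the gene of this group best known as a readout of pheromone signalling, was higher on all 4 CHINA8 arrays than on any control array. It read 4.84, 4.80, 4.77 and 4.66 with CHINA8, against 4.33, 4.42, 4.38 and 4.50 in control. These are dim values, as 4.93% of probe sets lay below the mean of FUS1 and the deleted genes reached 3.98. The log2 change was 0.36 (SE 0.09, adjusted p = 0.00464, limma) and it passed the threshold whichever of the 18 arrays was left out. Within batch 1 it was 0.44 (adjusted p = 0.0435), and within batch 2 it was 0.27 (adjusted p = 0.136). With USA6, FUS1 read 5.02 and 4.60, so that both arrays lay above control but far from each other. The log2 change with USA6 was 0.40 (SE 0.11, adjusted p = 0.0361), within batch 2 alone it was 0.37 (adjusted p = 0.0761), and without the first USA6 array it was 0.19 (adjusted p = 0.557). The USA6 call was also lost without control array 1 (0.0574), 2 (0.0623) or 3 (0.0531) and without either USA2 array (0.0513 each).

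STE6 went the other way. It read 6.79 and 6.19 with USA7, against 7.16, 6.85, 7.22 and 7.47 in control, so that both USA7 arrays lay below control but far from each other. The log2 change was -0.68 (SE 0.24, adjusted p = 0.0336, limma), and without the second USA7 array it was -0.38 (adjusted p = 0.355). The call was also lost without control array 3 (adjusted p = 0.0567) or 4 (0.0773). In order, its mean was 6.49 with USA7, 6.63 with EUROPE11, 6.63 with INDIA13, 6.72 with USA2, 6.97 with USA6, 7.04 with CHINA8 and 7.17 in control. All neighbours in that order lay within the SD of 0.30 between arrays of a condition.

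AXL1 read 7.44 and 7.29 with USA7, against 6.72, 6.96, 7.36 and 6.81 in control. The USA7 arrays overlapped control through control array 3 alone. The log2 change was 0.41 (SE 0.14, adjusted p = 0.0320, limma), and within batch 2 it was 0.28 (adjusted p = 0.130). The call with USA7 was lost without control array 1 (0.0666), control array 4 (0.0725), or the first (0.213) or second (0.0747) USA7 array. Without control array 3, AXL1 passed with 4 more extracts, at log2 changes of 0.36 with CHINA8 (adjusted p = 0.00376), 0.44 with INDIA13 (0.00627), 0.39 with USA2 (0.0169) and 0.40 with USA6 (0.0228).

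**Figure D3:**
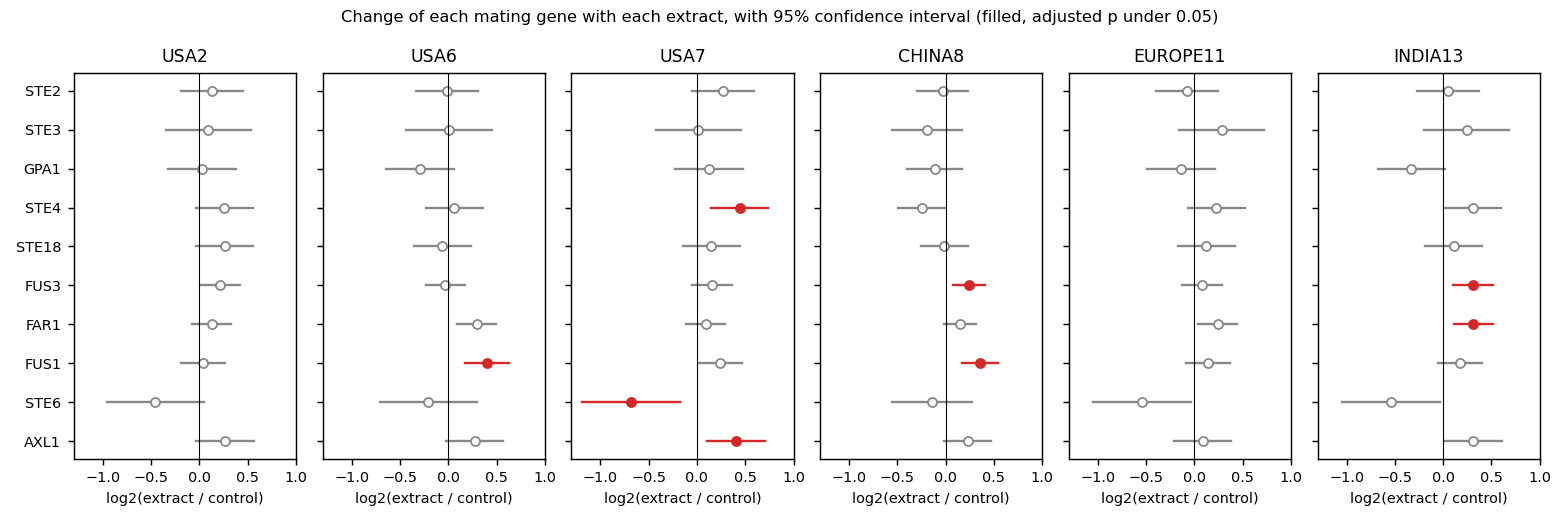
Log2 change of each mating gene (rows) with each extract (panels) against control on the x axis, with its 95% confidence interval, filled red where the Benjamini-Hochberg adjusted p was under 0.05. The 8 filled points are FUS1 in USA6 and CHINA8, FUS3 in CHINA8 and INDIA13, FAR1 in INDIA13, and STE4, STE6 and AXL1 in USA7.

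Over 5 extracts together, USA6 left out, 12 extract arrays were compared with 4 control arrays, and 0 of 10 mating genes passed the Bonferroni threshold in limma, against 3.78% of all probe sets. At an unadjusted p under 0.05 there were 5 (STE6, FUS1, FUS3, FAR1 and AXL1). With Benjamini-Hochberg adjustment 2 passed, FUS1 (log2 change 0.22, adjusted p = 0.0454) and FUS3 (0.21, adjusted p = 0.0347). The shares of all probe sets by these less strict rules were not computed, so these counts do not set the mating genes apart. Whether CHINA8 acted alike in both batches was tested by an interaction in limma, which 0 mating genes and 0% of all probe sets passed. At an unadjusted p under 0.05 there were 0 mating genes and 623 probe sets in all.

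A property of the arrays moved with STE6 and STE4. The 2 CHINA8 and 2 control arrays of batch 2 stood apart in the difference between the 3′ and 5′ probe sets of 18S rRNA, with values between -1.54 and -1.12, against -2.85 to -2.08 on the 4 arrays of batch 1 and -2.83 to -2.34 on the 10 arrays of the other extracts. STE6 had its 4 highest values of 18 on exactly these arrays, between 7.22 and 7.47, against 6.19 to 7.16 on the other 14. STE2, STE3, STE4 and STE18 each had 3 of their 4 lowest values there. The part of this difference between arrays in the results was not tested. Without these 4 arrays, which leaves control arrays of batch 1 only, 5 of the 8 called changes missed the threshold in limma. They were STE6 (-0.51, adjusted p = 0.0808) and STE4 (0.32, 0.0739) with USA7, FAR1 with INDIA13 (0.22, 0.134), FUS3 with CHINA8 (0.28, 0.0823) and FUS1 with USA6 (0.43, 0.0535). The changes of FUS3 with CHINA8 and FUS1 with USA6 were larger there than with all 18 arrays (0.24 and 0.40). This setting also has fewer control arrays, which lowers its precision. FUS1 with CHINA8, FUS3 with INDIA13 and AXL1 with USA7 passed, and AXL1 passed as well with CHINA8 (0.43, 0.00882), INDIA13 (0.43, 0.0127), USA2 (0.38, 0.0279) and USA6 (0.39, 0.0330).

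With batch as a block in the model, more changes passed. Only CHINA8 and control are in both batches, so the batch term rests on these arrays. For each gene it shifts the change with every other extract by the same amount. STE6, for instance, went from -0.46 to -0.70 with USA2 and from -0.21 to -0.45 with USA6. The gains with these extracts are thus not separate findings. The batch 2 arrays behind the batch term are the 4 that stood apart in rRNA, at -1.54 to -1.12. The 10 arrays of the other extracts, at -2.83 to -2.34, lay within the range of the batch 1 arrays, -2.85 to -2.08. The block thus applies to these extracts a shift measured on arrays unlike theirs in this property. Whether that shift reflects batch or the array property was not tested. The share of all probe sets that passed with the block was not computed. STE6 then passed with USA7 (-0.93, adjusted p = 0.00155), EUROPE11 (-0.79, 0.00648), INDIA13 (-0.79, 0.00548) and USA2 (-0.70, 0.0125). STE4 then passed with USA7 (0.56, 0.00274), INDIA13 (0.42, 0.0161), USA2 (0.37, 0.0340), EUROPE11 (0.34, 0.0477) and, downwards, CHINA8 (-0.25, 0.0474). STE2 passed with USA7 (0.44, 0.00406) and USA2 (0.31, 0.0387), STE3 with EUROPE11 (0.49, 0.0372) and INDIA13 (0.45, 0.0471), and FAR1 with EUROPE11 (0.29, 0.0287) and USA6 (0.35, 0.0250). All 8 changes called without the block passed with it as well, in the same direction. Of the changes gained with the block, 0 passed without the 4 arrays that stood apart. That setting has no batch term and sets the extracts other than CHINA8 beside control arrays of batch 1 only. It cannot tell batch from extract, so it is no test of the gained changes. There STE2 was at 0.12 with USA7 (adjusted p = 0.423) and -0.02 with USA2 (0.928), STE3 at 0.12 with EUROPE11 (0.663) and 0.08 with INDIA13 (0.773), and STE6 at -0.38 with EUROPE11 (0.232), -0.37 with INDIA13 (0.225) and -0.29 with USA2 (0.369).

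**Figure D4:**
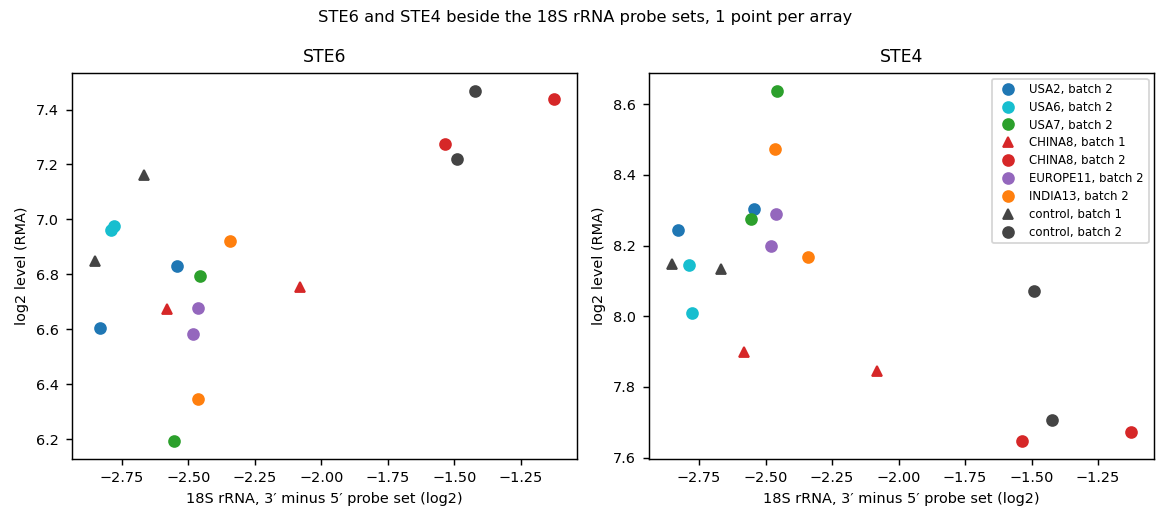
Log2 level (y axis) of STE6 (left) and STE4 (right) against the 18S rRNA 3′ minus 5′ difference in log2 units (x axis), 1 point per array, coloured by condition, triangles for batch 1 and circles for batch 2. The 2 CHINA8 and 2 control arrays of batch 2 lie on the right, where STE6 is between 7.22 and 7.47.

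The 10 genes did not vary as a group. Over the 18 arrays, the 45 pairwise correlations ran between -0.68 and 0.65 with a median of 0.11, as a description of arrays that share batches and controls. The highest was between STE3 and STE4 (0.65), followed by STE2 and STE4 (0.63). STE6 ran opposite to STE3 (-0.68), STE4 (-0.67), STE2 (-0.65) and STE18 (-0.62). On the 4 arrays that stood apart in 18S rRNA, STE6 had its highest values and these genes most of their lowest. The correlations were not computed without those arrays. The SD between arrays of 1 condition was 0.10 to 0.30 for the mating genes (median 0.17, against 0.15 for all probe sets), and the SD between condition means had a median of 0.14, against 0.17 for all probe sets.

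The gene whose pattern over the 18 arrays was most like that of STE4 was SLM4 (r = 0.95), and for STE6 it was RAD2 (0.95), followed by RAD1 (0.94), both of which code for DNA repair nucleases. AXL1 was most like RPA12 (0.91), a subunit of RNA polymerase I, and then RPL15A (0.88), a ribosomal protein gene. STE2 was most like YER076C (0.90) and STE3 most like YVC1 (0.85). GPA1 was most like ARL1 (0.79), FUS1 most like UTP10 (0.81), FUS3 most like YML018C (0.79) and STE18 most like DAD3 (0.71). Each r is the highest, or next to it, among all named probe sets, and the arrays behind it share batches and conditions.

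Around the 10 genes, the other parts of the mating system gave mixed changes. Of 12 signalling genes that cells of every mating type use, CHINA8 raised 5 (STE20, STE7, STE12, DIG2 and MCM1) and lowered KSS1, so that 6 of 12 passed beside 39.6% of all probe sets. EUROPE11 raised 3 and lowered 1 (22.2% of all probe sets passed), USA7 raised 2 and lowered 3 (39.3%), INDIA13 lowered 2 (28.5%), USA2 raised 1 (18.9%) and USA6 lowered 1 (6.96%). The median log2 change of this list lay between -0.10 with USA7 and 0.28 with CHINA8. KSS1, the MAP kinase closest to FUS3 and active in filamentous growth, fell with 5 of 6 extracts, by 0.54 with USA6 (adjusted p = 0.0105), 0.46 with USA7 (0.00655), 0.43 with EUROPE11 (0.0175), 0.39 with INDIA13 (0.0224) and 0.34 with CHINA8 (0.00971). With USA2 its log2 change was -0.31 (adjusted p = 0.0745). DIG2, a repressor of Ste12, rose with USA2, USA7, CHINA8 and EUROPE11, by 0.35 to 0.52.

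Of 10 genes induced by pheromone through Ste12, FUS1 among them, CHINA8 raised 4 (FUS1, FIG2, AGA1 and MSG5) and lowered KAR4 (39.6% of all probe sets passed), while USA7 raised MSG5 and lowered FUS2, KAR5 and CIK1 (39.3%). INDIA13 raised FIG1 and MSG5 and lowered FUS2, KAR4 and KAR5 (28.5%), and EUROPE11 raised MSG5 and lowered KAR4 and KAR5 (22.2%). These shares of the list were near those of all probe sets or somewhat above them. USA6 raised FUS1 alone, and with USA2 0 of 10 passed in limma, with 3 at an unadjusted p under 0.05. The share of all probe sets at an unadjusted p was not computed. With USA7, CHINA8, EUROPE11 and INDIA13 genes of this list passed in both directions, and its median log2 change lay between -0.28 with USA7 and 0.06 with CHINA8. KAR5, which serves nuclear fusion, had log2 changes of -0.70 with EUROPE11 and -0.50 with INDIA13 (adjusted p = 0.00748 and 0.0297).

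Of 9 genes for the maturation of the pheromones, USA7 raised STE14 (log2 change 0.89, adjusted p = 0.00161), RAM2 (0.73, 0.0100) and RAM1 (0.67, 0.00473), which together farnesylate and methylate a-factor and other proteins, and lowered STE23, KEX1 and STE13. RAM1 and STE14 also rose with USA2, RAM1 rose and STE13 fell with INDIA13, and KEX2 rose with EUROPE11. With USA6 and CHINA8 0 of 9 passed in limma, with 0 at an unadjusted p under 0.05. The share of all probe sets at an unadjusted p was not computed. After adjustment, 39.3% of all probe sets passed with USA7, 39.6% with CHINA8, 28.5% with INDIA13, 22.2% with EUROPE11, 18.9% with USA2 and 6.96% with USA6. Of the other a-specific genes, BAR1, the protease that degrades α-factor, rose with USA7 (0.78, adjusted p = 0.00738), ASG7 rose with INDIA13 (0.28, 0.0432) and AGA2 fell with CHINA8 (-0.60, 0.00288). Of the α-specific genes, MF(ALPHA)2 rose with USA7 (0.70, 0.00435) and SAG1 with CHINA8 (0.37, 0.0209).

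Genes of the mating-type loci and of the lists below also passed in part. Beside them stand the shares of all probe sets that passed, 39.3% with USA7, 39.6% with CHINA8, 28.5% with INDIA13, 22.2% with EUROPE11, 18.9% with USA2 and 6.96% with USA6. The α1 probe set (HMLALPHA1) rose with USA7 (log2 change 1.14, adjusted p = 0.00793) and INDIA13 (0.90, 0.0329), and the a1 probe set (HMRA1) rose with USA7 (0.61, 0.0336) and fell with CHINA8 (-0.49, 0.0345). HMRA2 fell with USA7, EUROPE11 and INDIA13. Of 4 silencing genes, SIR2 rose with CHINA8, EUROPE11 and INDIA13, and SIR3 fell with INDIA13. RME1 fell with CHINA8 (-0.76, adjusted p = 0.000593) and EUROPE11 (-0.52, 0.0402). IME1, which starts meiosis and is repressed by Rme1, rose with 5 of 6 extracts, by 0.64 with CHINA8, 0.58 with EUROPE11, 0.54 with USA2, 0.54 with USA7 and 0.40 with INDIA13. The other listed genes of entry into meiosis, IME2 and IME4, passed with no extract. IME4 had log2 changes between -0.34 and -0.04, IME2 between -0.22 and 0.17, and the median of these 3 genes was below 0 with USA2, USA7, EUROPE11 and INDIA13. Of 10 genes of bud site selection, in which AXL1 acts, RAX1 rose with USA7, CHINA8, EUROPE11 and INDIA13, AXL2 rose with USA7, CHINA8 and EUROPE11, and BUD2 fell with USA7 and INDIA13.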

How the data were processed

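RNA was labelled and hybridized to Affymetrix Yeast Genome 2.0 arrays at the Ramaciotti Centre. The authors applied RMA (background correction, quantile normalization between arrays and summary of probes). The deposited log2 values of 18 arrays, with 5900 probe sets each, were taken without further normalization. RMA and limma are named in the submitters' processing notes, with versions not given in the sources used here. A shift of most genes in 1 direction would be hidden by quantile normalization, and precision is limited by the number of arrays. Values lay between 2.73 and 14.49.

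After removal of 137 Affymetrix control probe sets, 5763 were tested, dim ones included. The platform annotation gave the gene names (12 updated by gene ID, 265 probe sets without a name). Comparisons used R 4.3.3 and limma 3.58.1 (lmFit, eBayes): a model of 7 groups for each extract against control and for the F-test among extracts (Benjamini-Hochberg), 12 extract arrays without USA6 against 4 control arrays (Bonferroni), and a CHINA8 by batch interaction, at a threshold of 0.05. The fits were tested on simulated data.

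The members and gene lists were chosen with earlier results of these data known. The text names all 10 members, the marker genes of mating type, up to 4 genes of the largest called change from each other list, genes behind counts of 5 or fewer, and the genes whose pattern was most like a member's. The main models did not treat replicate numbers within a batch as pairs. The difference between replicates 1 and 2 with an extract was correlated with that in control over all probe sets. In batch 2 this gave r between -0.38 and 0.26, and for CHINA8 in batch 1 it gave 0.75. A replicate block was therefore among the alternatives. The alternatives covered the probe sets tested, a filter on dim probe sets, normalization, batch, replicate number, eBayes settings, adjustment, model and arrays left out.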

Additional observations from a re-analysis of the deposited data

Results flagged for a closer look

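Within the groups of 4 arrays, 20 sets of values (10 genes in CHINA8 and in control) were examined for an array far from the others, by the gap to its nearest neighbour over the whole range. Chance flags about 1 in 20 such sets, and 2 were found. STE4 on control array 4 read 7.71, far below the other control arrays at 8.07 to 8.15 (gap over range 0.830). STE18 on CHINA8 array 2 read 4.18, above the other CHINA8 arrays at 3.84 to 3.89 (0.841), all near the level of the deleted genes.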

How the results depend on the processing

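No change of a mating gene turned its direction while passing the threshold under any alternative. The share of all probe sets that passed was computed for the main models only. The counts below thus have no such share beside them. With the replicate block (number within batch), 3 mating genes passed with USA2, 2 with USA6, 4 with EUROPE11, 4 with INDIA13 and 4 in the F-test. With batch as a block these counts were 3, 2, 4, 5 and 4. In batch 2 alone they were 1 with USA2, 0 with CHINA8, 2 with EUROPE11, 4 with INDIA13 and 4 in the F-test, and in batch 1 alone 1 passed with CHINA8. With Bonferroni correction 0 passed with USA6, USA7, CHINA8 or INDIA13 or in the F-test, and with Benjamini-Hochberg adjustment 2 passed in the contrast of 12 extract with 4 control arrays. In models of 1 extract and control alone, 0 passed with USA6, USA7 or INDIA13 and 1 with CHINA8. After quantile normalization over the yeast probe sets 0 passed with USA6 or INDIA13, and without dim probe sets, which drops FAR1, 1 passed with INDIA13. Without the CHINA8 and control arrays of batch 2, chosen after seeing the data, 1 passed with USA2 and 1 with USA7. The reporter probe sets, also an added alternative, changed no count by over 1.5 times.

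Leaving out each array in turn gave 0 to 1 with USA2, 0 to 1 with USA6, 1 to 4 with USA7, 1 to 3 with CHINA8, 0 with EUROPE11, 0 to 3 with INDIA13, 1 to 2 in the F-test, and 0 in the contrast of 12 with 4 and in the interaction. Summed over the other alternatives, and counting a change anew under each, the 8 calls were lost 28 times and other changes passed 36 times. With 2 arrays for 5 of the extracts, and FAR1 and STE18 near the highest value of the deleted genes, the precision for these genes is limited. FUS1 and FUS3 were not far above that value, with means of 4.60 and 4.33.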
